A study of Mus musculus with 10 samples.

Results

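Troponin is the calcium switch of striated muscle, and the 8 mouse genes of its fast, slow and cardiac forms were followed through blood RNA of metformin-treated and control mice. The genes were Tnnt3, Tnnc2 and Tnni2 for the fast forms, Tnnt1 and Tnni1 for slow muscle, Tnnc1 for slow muscle and heart, and Tnnt2 and Tnni3 for the heart. They were selected on their measured levels in these same 10 libraries, so those levels are given as a description, and no test of them is read as evidence. Of the 8904 genes of the table, 7 of the 8 troponin genes were found, and 6 of these were among the 3442 genes high enough to be tested. Tnni1 was not analysed here.

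The 5 metformin libraries came from adult C57BL/6 mice treated with metformin for 30 days, and the 5 control libraries from adult C57BL/6 mice given PBS, the carrier salt solution, for the same 30 days. The mice were 8 months old by the study's description. All samples were labelled as blood with no genetic change, and each library was taken as 1 mouse. The labels do not say that each library is a separate animal, so the spread between libraries may be technical in part. The methods give several doses, and both tail vein and oral routes, for the study as a whole, and do not say which applied to these mice. Elsewhere in the study blood was taken by removing the eyeball. Each value is a log2 FPKM, the log2 of the fragments of a gene scaled to the length of its transcript and to the total of the library. The 10 libraries share nearly the same set of sorted values, so a value gives the place of a gene within its library rather than an amount of RNA. The highest value was 12.48, the next 11.50 and the third 11.31 in every library. The genes tied at the bottom of a library had values between 0 and 0.12. In such bulk samples fewer cells of a type and less RNA per cell cannot be told apart.

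The 10 libraries were not alike in tissue content. Alas2, which starts heme synthesis in red cell precursors, led the table in each of the 5 metformin libraries and in control 2, 3 and 4. Control 1 and control 5 were instead led by Myl2, the regulatory light chain of heart and slow muscle myosin. The mean of 6 erythroid markers was 5.37 to 5.85 in the metformin libraries and 4.37 to 5.25 in control 2 to 4, but 0.31 in control 1 and 1.79 in control 5. Control 5 differed from control 1 in blood genes, with Alas2 at 8.28. Its mean of 12 leukocyte genes was 3.14, within the 2.79 to 3.95 of control 2 to 4, against 0.41 in control 1. The platelet mean was 3.15 in control 5 and 0.41 in control 1. The mean of 11 heart genes was 0.22 to 0.30 in the metformin libraries and 0.15 to 0.81 in control 2 to 4, against 4.52 in control 1 and 5.33 in control 5. The defining red cell markers of the labelled tissue were thus near the lowest value in control 1. Values without control 1 and control 5 are therefore given for the troponins and for most lists. They are also given for some other genes where leaving these libraries out changes a call or the size of a difference.

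In a muscle fibre the troponin complex sits on the thin filament, which is built of actin and of tropomyosin lying along it. Troponin C binds calcium, troponin I holds actin and myosin apart at rest, and troponin T ties the complex to tropomyosin. Fast fibres, slow fibres and heart muscle use different genes for each subunit, with troponin C shared between slow fibres and heart. Blood cells have no sarcomeres, and troponin protein in plasma is known as a sign of injured heart or skeletal muscle.

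The fast and cardiac forms have different coding sequences, and stretches are shown in which their function is known to differ. In the stretch that holds the first calcium-binding loop of troponin C, capitals mark the codons that encode another residue in the other form or have no partner there. The loop of fast Tnnc2 is known to bind calcium and that of Tnnc1 is known to have lost this ability.
Tnnc2 calcium site I: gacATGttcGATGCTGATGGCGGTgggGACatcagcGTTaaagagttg
Tnnc1 calcium site I: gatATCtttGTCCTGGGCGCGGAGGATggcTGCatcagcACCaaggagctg
These are codons 25 to 40 of Tnnc2 and codons 25 to 41 of Tnnc1, from GENCODE transcripts on GRCm38. The Tnnc2 stretch lies on the minus strand at chr2:164778023-164778070 and the Tnnc1 stretch on the plus strand at chr14:31210077-31210127, both in coding exons. In the alignment 8 of 16 codons of the Tnnc2 stretch and 9 of 17 codons of the Tnnc1 stretch are in capitals. Both stretches include codons on either side of the loop.

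Cardiac Tnni3 starts with an extension that the skeletal forms do not have. The capitals in its first 32 codons mark the adjacent pair of serine codons that protein kinase A is known to target in the heart.
Tnni3 start: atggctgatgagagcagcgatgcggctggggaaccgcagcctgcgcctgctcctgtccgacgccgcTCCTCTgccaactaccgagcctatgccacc
This coding stretch is joined from exons on the minus strand that lie within chr7:4521831-4522315 of GRCm38. The aligned coding sequences of fast, slow and cardiac partners were 63.9% to 68.7% identical in bases. The longest run of bases shared exactly by any such pair was 22, between Tnni2 and Tnni1. No long identical stretch between which reads could be split was thus found in these coding sequences.

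Promoters are shown for Tnnc1 and Tnnt2, which were high together in control 1 and control 5, and for Tnnc2, which was high in the metformin libraries. Capitals mark 2 short motifs on either strand, the E-box CANNTG bound by MyoD-type factors and the M-CAT element CATTCC bound by TEAD factors.
Tnnc1 promoter: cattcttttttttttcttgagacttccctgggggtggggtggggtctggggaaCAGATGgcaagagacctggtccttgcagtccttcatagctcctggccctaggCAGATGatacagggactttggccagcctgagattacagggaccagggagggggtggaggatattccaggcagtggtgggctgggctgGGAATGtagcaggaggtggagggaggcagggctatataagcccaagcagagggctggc
Tnnt2 promoter: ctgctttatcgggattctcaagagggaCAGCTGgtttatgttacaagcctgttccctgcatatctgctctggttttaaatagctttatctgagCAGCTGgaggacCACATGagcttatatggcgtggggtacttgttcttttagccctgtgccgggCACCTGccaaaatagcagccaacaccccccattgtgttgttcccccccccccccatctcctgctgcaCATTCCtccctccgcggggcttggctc
Tnnc2 promoter: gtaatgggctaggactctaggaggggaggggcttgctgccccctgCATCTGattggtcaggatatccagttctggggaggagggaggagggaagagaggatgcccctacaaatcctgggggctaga
The sequences are from RefSeq on GRCm38.p6, at chr14:31208062-31208311 on the plus strand for Tnnc1, at chr1:135836084-135836333 on the plus strand for Tnnt2, and at chr2:164779742-164779867 on the minus strand for Tnnc2. The Tnnc2 stretch is the 126 bases of its window between annotated exons, upstream of the RefSeq start but inside the gene span of GENCODE, and a further E-box of the window at -183 is not shown. A promoter window of 250 bases before and 50 bases after a start was found for 6 of the 8 genes. The M-CAT letters CATTCC were found in the windows of Tnnc1 and Tnnt2 alone among these, and are in 14.7% of all windows. The E-box letters CANNTG were in the windows of all 6 genes, and in 72.3% of all windows. Neither the MEF2 motif, which 3.19% of all windows hold, nor the CArG box, which 1.63% hold, was matched in any of them. A TATAAA was matched for Tnnt1 alone and is in 13.6% of all windows. The GATA letters GATAA were matched for Tnnt2 and Tnni3 alone and are in 25.4% of all windows. Such matches describe the letters and not binding.

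The 3 fast troponins were high in every metformin library and under 1 in every control library, below the middle of the table in each and at the lowest value in some. Tnnt3, the fast troponin T (ENSMUSG00000061723), lies on chromosome 7 from 142498836 to 142516009. Its log2 FPKM was 6.71, 6.47, 6.55, 6.57 and 5.87 in metformin 1 to 5, against 0.56, 0.54, 0.07, 0.08 and 0.19 in control 1 to 5. The groups did not overlap, and control 1 and control 5, led by heart genes, were as low as the other controls. The difference of metformin minus control was 6.14 (standard error 0.293). It was 6.20 (standard error 0.290) against control 2 to 4.

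Tnnc2, the fast troponin C (ENSMUSG00000017300), lies on chromosome 2 from 164777161 to 164779967. Levels were 6.48, 6.26, 6.22, 6.39 and 5.75 in metformin 1 to 5, against 0.27, 0.63, 0.07, 0.08 and 0.08 in control 1 to 5. Metformin 5 was again the lowest of its group, and all control values lay below it. Metformin libraries were higher than controls by 6.00 (standard error 0.278), and than control 2 to 4 by 5.96 (standard error 0.284).

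Tnni2, the fast troponin I (ENSMUSG00000031097), lies on chromosome 7 from 142441808 to 142444410. Its log2 FPKM was 6.30, 6.16, 6.06, 6.22 and 5.62 in metformin 1 to 5, against 0.41, 0.72, 0.18, 0.08 and 0.15 in control 1 to 5. All control values again lay below all metformin values. Metformin minus control gave 5.77 (standard error 0.277), and 5.75 (standard error 0.283) with control 2 to 4 alone.

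**Figure D1:**
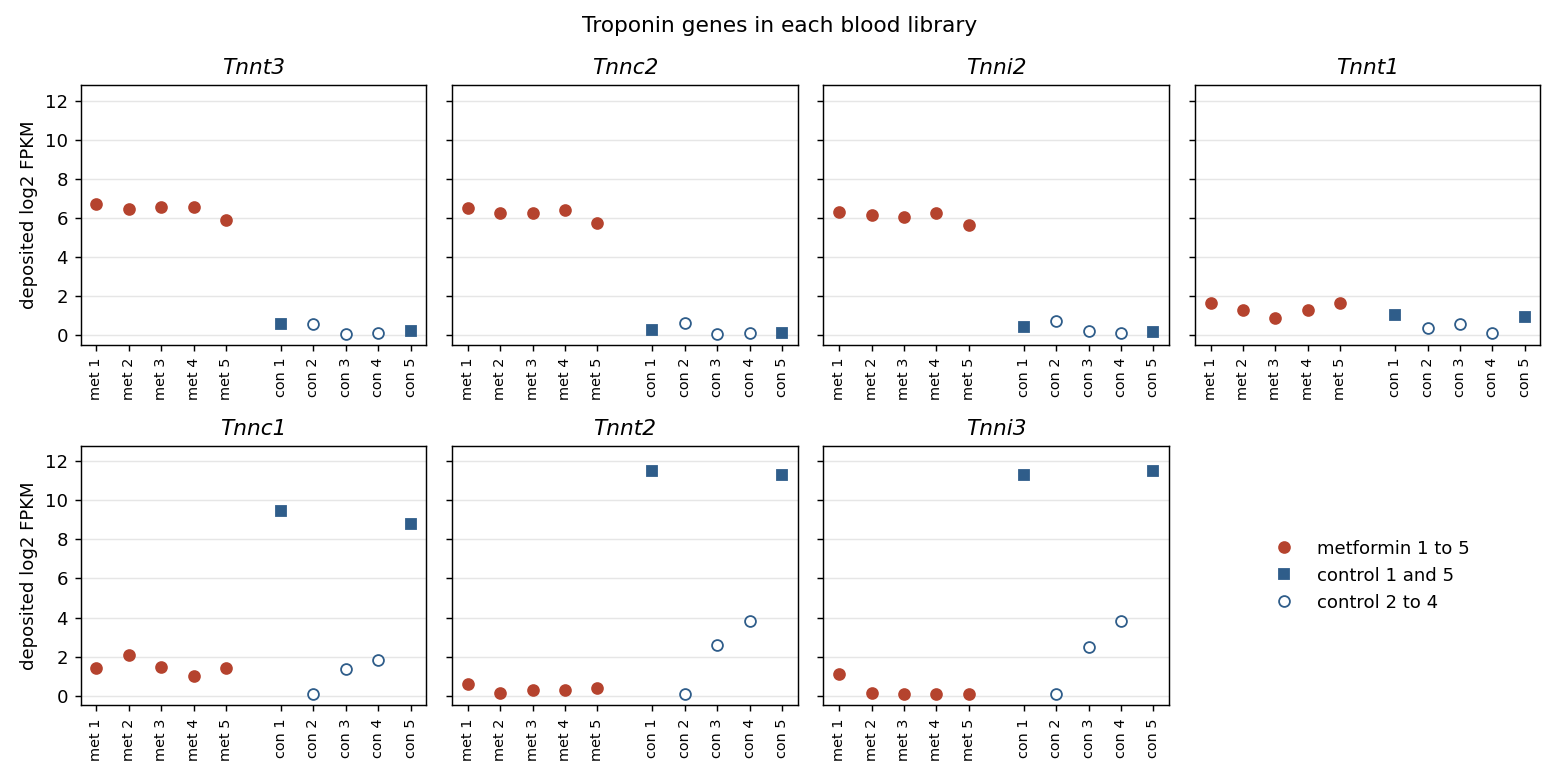
Log2 FPKM (vertical axis) of the 7 troponin genes with values, 1 panel each, in metformin 1 to 5 (met, red circles) and control 1 to 5 (con, blue, with squares for control 1 and 5 and open circles for control 2 to 4), 1 point per library. The 3 fast forms lie between 5.62 and 6.71 in the metformin libraries and at most 0.72 in all controls, and Tnnt2 and Tnni3 lie above 11 in control 1 and 5.

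In rank the fast forms stood among the 162 highest of 8904 genes in each metformin library, the best place being 86 for Tnnt3 in metformin 1. In the controls their places ran between 4886 and 8795. Control 3 and control 4 held Tnnt3 and Tnnc2 at the lowest value of the library, which is shared there by 183 and 220 genes. The levels per length of the 3 subunits lay close together and in 1 order. Tnnt3 was above Tnnc2 in all 5 metformin libraries, by 0.12 to 0.33, and Tnnc2 was above Tnni2 in all 5, by 0.11 to 0.17. Over all 10 libraries their pairwise Pearson correlations were at least 0.999, with the points in separate groups. Within the 5 metformin libraries they were 0.970 to 0.996, with metformin 5 the lowest for each.

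The difference was smaller for the troponin T of slow fibres. Tnnt1 (ENSMUSG00000064179) lies on chromosome 7 from 4504570 to 4516382. Log2 FPKM values were 1.63, 1.28, 0.85, 1.29 and 1.61 in metformin 1 to 5, against 1.01, 0.36, 0.58, 0.08 and 0.93 in control 1 to 5. All 5 metformin values were above control 2 to 4, and metformin 3 lay below control 1 and control 5. Metformin minus control was 0.74 (standard error 0.209), and 0.99 (standard error 0.198) against control 2 to 4. Within a metformin library Tnnt3 stood 4.26 to 5.70 above Tnnt1, and within a control library the difference of Tnnt3 minus Tnnt1 was -0.73 to 0.18.

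Tnnc1, the troponin C of slow fibres and heart (ENSMUSG00000091898), separated the controls from each other. It lies on chromosome 14 from 31208312 to 31211729. Its log2 FPKM was 1.42, 2.07, 1.46, 1.03 and 1.41 in metformin 1 to 5, against 9.48, 0.11, 1.36, 1.81 and 8.77 in control 1 to 5. Control 1 and control 5 stood far above the rest, where Tnnc1 was the gene of rank 17 and 24. The metformin values overlapped with those of control 2 to 4, whose lowest was control 2 at the bottom of its library. The difference of metformin minus control was -2.83 (standard error 1.70) over all libraries and 0.39 (standard error 0.362) against control 2 to 4, so its sign rested on control 1 and control 5.

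Tnnt2, the cardiac troponin T (ENSMUSG00000026414), lies on chromosome 1 from 135836354 to 135852260. In log2 FPKM it was at 0.60, 0.12, 0.32, 0.28 and 0.37 in metformin 1 to 5, against 11.50, 0.11, 2.62, 3.84 and 11.31 in control 1 to 5. It was the second highest gene of control 1 and the third of control 5. Among the other controls it was at the bottom in control 2 and clearly present in control 3 and control 4, at ranks 740 and 386. The difference of metformin minus control was -5.54, and it was -1.85 against control 2 to 4. Tnnt2 was not among the tested genes, since only 4 libraries reached the minimum value of 1.

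Tnni3, the cardiac troponin I (ENSMUSG00000035458), lies on chromosome 7 from 4518305 to 4524229. Its log2 FPKM was 1.13, 0.12, 0.09, 0.10 and 0.11 in metformin 1 to 5, against 11.31, 0.11, 2.50, 3.82 and 11.50 in control 1 to 5. Control by control it followed Tnnt2, from which it differed by at most 0.19 in any control. Metformin 1 was the only metformin library in which it stood above the lowest value. The difference of metformin minus control was -5.54 (standard error 2.003), and it was -1.83 (standard error 0.663) against control 2 to 4. Control 2 and metformin 2 held both Tnnt2 and Tnni3 at the lowest value of the library. The metformin values of Tnni3 spanned that of control 2, and those of Tnnt2 were all slightly above it. The lowest value differs between libraries, so an order among lowest values does not describe the level of a gene.

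The standing of Tnnt2 and Tnni3 against Tnnc1 was reversed between the groups. The difference of Tnnt2 minus Tnnc1 was -1.95 to -0.75 in the metformin libraries, while it was 1.26 to 2.54 in control 1, 3, 4 and 5 and 0 in control 2, where both were at the lowest value. For Tnni3 minus Tnnc1 the range was -1.95 to -0.29 in the metformin libraries, against 1.14 to 2.73 in control 1, 3, 4 and 5. The metformin libraries thus held the troponin C of slow fibres and heart at a level above both cardiac subunits.

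Set within each library, the balance of fast and cardiac forms had opposite signs in metformin libraries and in 4 of 5 controls. The difference of Tnnt3 minus Tnnt2 was 6.11, 6.35, 6.23, 6.28 and 5.50 in metformin 1 to 5, against -10.94, 0.44, -2.55, -3.76 and -11.12 in control 1 to 5. The difference of Tnni2 minus Tnni3 was 5.18, 6.04, 5.97, 6.13 and 5.52 in metformin 1 to 5, against -10.90, 0.61, -2.32, -3.74 and -11.35 in control 1 to 5. The exception was control 2, which held neither form above 0.72. The difference of Tnnc2 minus Tnnc1 was smaller on both sides, at 5.06, 4.19, 4.76, 5.36 and 4.35 in metformin 1 to 5, against -9.21, 0.53, -1.29, -1.74 and -8.70 in control 1 to 5. Such differences within a library do not depend on a shift shared by all of its genes.

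**Figure D2:**
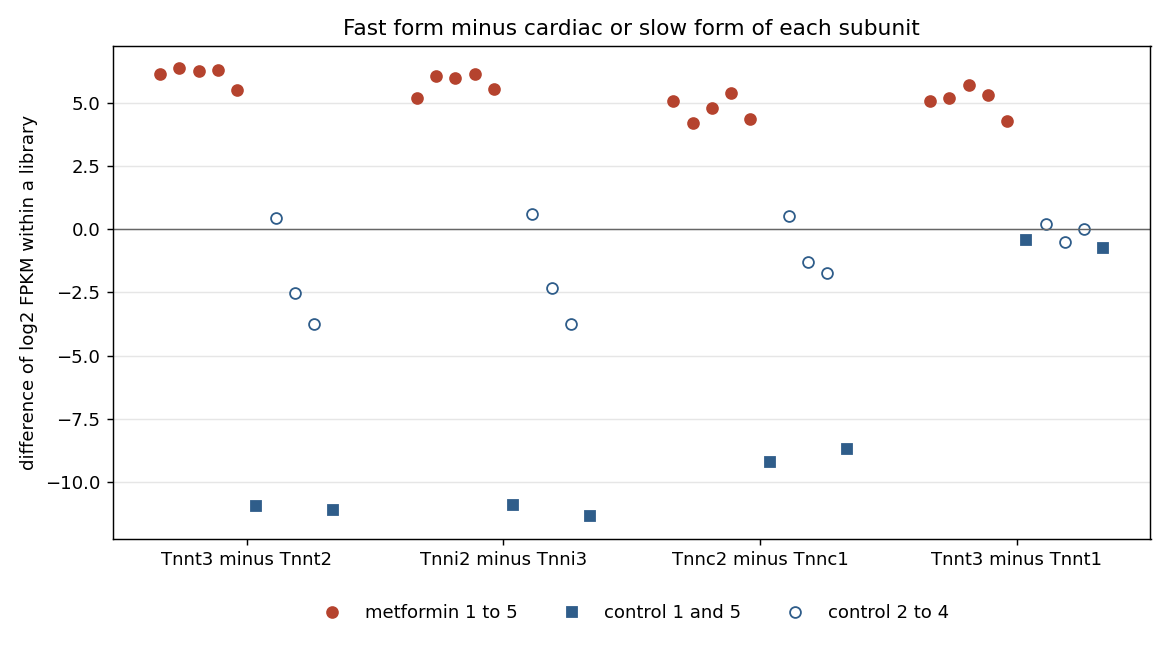
Difference of log2 FPKM between troponin forms within each library (vertical axis), for troponin T, I and C fast minus cardiac and for troponin T fast minus slow, with metformin 1 to 5 as red circles, control 1 and 5 as blue squares and control 2 to 4 as open circles. All metformin libraries lie between 4.19 and 6.35, and control 1 and 5 lie between -11.35 and -8.70 for the 3 cardiac comparisons.

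Across the whole table limma put 4.21% of the 3442 tested genes past an adjusted p of 0.05 (Benjamini-Hochberg) as higher and 3.11% as lower, and 5.69% of genes had every metformin value above every control value. Of the 6 tested troponin genes, Tnnt3, Tnnc2 and Tnni2 were called higher and also did not overlap. This count is given beside those shares only, since the same values chose the genes. These 3 genes were under 1 in all controls and passed the filter, a value of at least 1 in 5 libraries, only through the metformin libraries. The same holds below for Neb, Tmod4, Casq1, Cacna1s, Atp2a1, Car3, Mybpc1 and most called fast fibre genes. Calls of all these genes describe levels and are not counted as support. Genes high in control 1 and control 5 alone could not pass it. Counts of 0 lower in the muscle lists were thus partly set by the filter. Without control 1 and control 5 the shares were 5.81% higher and 9.06% lower, and Tnnt1 joined the calls. The median difference of all tested genes was 0.01, and 0.07 without control 1 and control 5.

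The proteins that troponin works with were then followed through gene lists. Of 11 thin filament genes with values, 9 were tested, and limma called 5 higher and 0 lower (5 and 0 at an unadjusted p below 0.05). The share of all tested genes at an unadjusted p below 0.05 was not computed. Unadjusted counts of this and the later lists thus have no background beside them and are a description only. The median difference of the list was 0.93. Without control 1 and control 5 limma called 6 higher and 0 lower, and the median was 1.47. Acta1, the actin of skeletal muscle, was at 6.49, 6.34, 6.26, 6.34 and 5.84 in metformin 1 to 5, against 2.81, 0.61, 0.14, 0.23 and 2.05 in control 1 to 5. It rose by 5.09 (standard error 0.534, limma adjusted p = 0.000168) without overlap. Neb, the giant ruler protein of the skeletal thin filament, was at 1.93 to 2.48 in the metformin libraries, against 0.15 to 0.32 in the controls, and rose by 2.01 (standard error 0.144, limma adjusted p = 4.64e-06).

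Tpm2, a skeletal muscle tropomyosin, was at 4.50, 4.58, 4.24, 4.62 and 3.88 in metformin 1 to 5, against 4.38, 0.36, 1.18, 0.32 and 1.58 in control 1 to 5. Control 1 lay within the metformin range. The difference was 2.80 (standard error 0.677, limma adjusted p = 0.0331), and the call ended when any metformin library or control 2, 4 or 5 was left out, with adjusted p up to 0.0826. Without control 1 and control 5 together Tpm2 was called higher by 3.74 (limma adjusted p = 3.48e-05). Tmod4, a cap of skeletal thin filaments, rose by 1.21 (limma adjusted p = 0.00596). Tmod1, a cap also found in red cells, had a difference of 0.93 (limma adjusted p = 0.0462), whose call ended without any 1 metformin library or control 1, 3 or 5 (adjusted p up to 0.118) and without control 1 and control 5 (adjusted p = 0.0746). Tpm1, the tropomyosin shared by heart and fast muscle, was present in all libraries, at 6.32 to 6.82 in the metformin libraries, against 10.38, 4.41, 3.91, 4.94 and 9.22 in control 1 to 5. Its difference was 0.02 (limma adjusted p = 0.993) over all libraries, and without control 1 and control 5 it was called higher by 2.17 (limma adjusted p = 0.00107). The heart actin Actc1 followed Tnnc1, with 0.88 to 1.70 in the metformin libraries, against 6.93, 0.23, 0.86, 0.99 and 6.40 in control 1 to 5.

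Genes that release, pump or buffer calcium showed the fast skeletal set in the metformin libraries and the heart set in control 1 and control 5. Of 11 such genes with values, 6 were tested, and limma called 4 higher and 0 lower (4 and 0 at an unadjusted p below 0.05), with a median of 2.10. Without control 1 and control 5 these were 5 higher and 0 lower, with a median of 2.27. Of the called genes, Atp2a1, Casq1 and Cacna1s were under 1 in all controls and passed the filter only through the metformin libraries. Their calls describe levels and are not counted as support. Atp2a1, the calcium pump of fast fibres, was at 5.87, 5.82, 5.71, 5.79 and 5.18 in metformin 1 to 5, against 0.22, 0.31, 0.13, 0.25 and 0.07 in control 1 to 5. It rose by 5.48 (standard error 0.249, limma adjusted p = 1.82e-07). Pvalb, the calcium buffer parvalbumin of fast fibres, was at 5.20 to 5.84 in the metformin libraries, against 1.15 to 2.08 in the controls, and rose by 4.03. Casq1, the calcium store protein of fast fibres, rose by 2.76, and Cacna1s, the voltage sensor of skeletal muscle, rose by 1.45. Heart counterparts were high in control 1 and control 5. Atp2a2, the pump of heart and slow fibres, was at 1.09 to 1.70 in the metformin libraries, against 5.24, 0.90, 1.36, 1.74 and 5.40 in control 1 to 5, and was not called. Pln, the regulator of that pump in heart, was at 0.09 to 0.32 in the metformin libraries, against 5.36, 0.11, 0.53, 0.48 and 4.45 in control 1 to 5.

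All 12 fast fibre genes with values were tested, and limma called 8 higher and 0 lower (8 and 0 at an unadjusted p below 0.05), with a median of 2.57. Of the called genes, Myh1, Myh4, Mylpf, Mybpc2, Actn3, Ampd1 and Myoz1 were under 1 in all controls. They passed the filter only through the metformin libraries, so their calls describe levels and are not counted as support. Without control 1 and control 5 all 12 were called higher, with a median of 3.27. Mylpf, the regulatory light chain of fast myosin, was at 5.99, 5.78, 5.65, 5.65 and 5.22 in metformin 1 to 5, against 0.60, 0.78, 0.21, 0.77 and 0.25 in control 1 to 5. It rose by 5.14 (standard error 0.276, limma adjusted p = 3.29e-07). Myh4, the heavy chain of the fastest fibres, rose by 4.58, Myl1, a fast essential light chain, by 4.02, and Actn3, the Z-disc actinin of fast fibres, by 3.87. Metformin 5 was the lowest metformin library for all 12 genes, as for the 3 fast troponins. It was also the lowest for 6 of 11 thin filament and 7 of 12 leukocyte genes. For slow fibre and erythroid genes this held for 2 of 9 and 0 of 6. The share over all genes was not computed, so this order is not read as particular to the list. The 4 genes called only without control 1 and control 5 were enzymes used by both skeletal muscle and heart. Of these, Ckm, the muscle creatine kinase, was at 6.67, 6.43, 6.40, 6.48 and 5.91 in metformin 1 to 5, against 8.0, 0.50, 1.09, 1.19 and 8.0 in control 1 to 5. The others were Pygm, Eno3 and Pgam2, enzymes of glycogen breakdown and glycolysis in muscle. Per length, the 3 fast troponins stood above 11 of the 12 fast fibre genes and 9 of the 11 thin filament genes in each metformin library, the exceptions being Ckm, Acta1 and Tpm1.

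Of 9 slow fibre genes with values, 6 were tested, and limma called 2 higher and 0 lower (2 and 1 at an unadjusted p below 0.05). The median was -1.15. Without control 1 and control 5 limma called 3 higher and 0 lower, and the median was 0.77. Car3, a carbonic anhydrase of slow fibres and fat, was at 3.22, 3.75, 3.58, 3.08 and 2.72 in metformin 1 to 5, against 0.91, 0.35, 0.07, 0.08 and 0.96 in control 1 to 5, and rose by 2.80 (standard error 0.274, limma adjusted p = 9.14e-05). Mybpc1, the slow form of myosin-binding protein C, rose by 1.47. Both differ from the rest of the list, which the heart ventricle shares. Myl3, the ventricular and slow essential light chain, was at 1.505 to 1.77 in the metformin libraries, against 11.002, 0.11, 1.85, 2.58 and 10.87 in control 1 to 5. Myh7, the slow heavy chain, was at 0.73 to 0.98 in the metformin libraries, against 3.26, 0.19, 0.26, 0.41 and 3.62 in control 1 to 5.

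**Figure D3:**
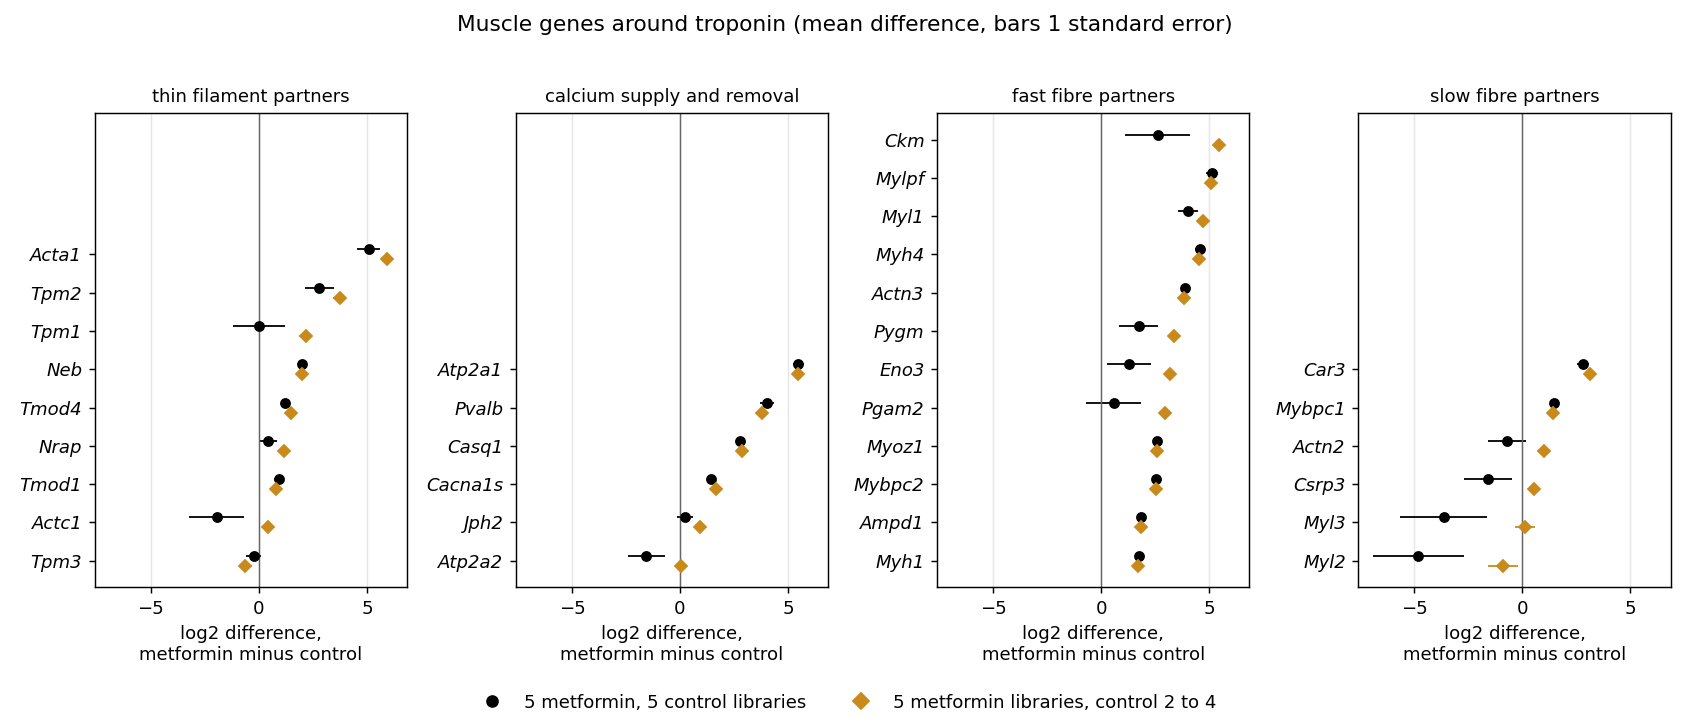
Mean log2 difference of metformin minus control (horizontal axis, bars 1 standard error) for the tested genes of 4 lists, over all 10 libraries (black circles) and with control 2 to 4 alone as controls (ochre diamonds). Genes that heart muscle also uses, such as Ckm, Tpm1 and Myl3, shift to the right when control 1 and 5 are left out, while Atp2a1, Mylpf and Neb stay in place.

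Of 11 heart genes with values only Smpx, a small protein of heart and skeletal muscle, was tested, and it was not called over all libraries. Smpx was called higher without control 1 and control 5 (difference 1.12, limma adjusted p = 0.00717). The other heart genes reached 1 in fewer than 5 libraries, so a lower level in metformin libraries could not be called for them. Each of the 11 heart genes was higher in control 1 and control 5 than in every other library, as were Tnnc1, Tnnt2 and Tnni3, against 20.0% of all 8904 genes. Myh6, the atrial heavy chain that is also the main adult ventricular one in mice, was at 0.09 to 0.41 in the metformin libraries, against 10.51, 0.18, 1.60, 2.31 and 9.73 in control 1 to 5. Nppa, the atrial natriuretic peptide, was at 0.09 to 0.36 in the metformin libraries, against 6.76, 0.11, 1.21, 1.88 and 10.73 in control 1 to 5. In 6 of the 11 heart genes, as in Tnnc1, Tnnt2 and Tnni3, control 4 was above control 3 and control 3 above control 2, against 18.4% of all 8904 genes.

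Other tissues and cell types were read from marker lists, and their part in the troponin differences was not tested. Of 8 genes of fibroblasts, fat and vessels 3 were tested, and limma called 0 over all libraries (0 at an unadjusted p below 0.05). Without control 1 and control 5, 2 were called higher. The list mean was 0.86 to 1.09 in the metformin libraries, against 2.39 in control 1, 1.65 in control 5 and 0.39 to 0.80 in control 2 to 4. Fabp4, the fat and capillary fatty acid carrier, was at 2.02 to 2.46 in the metformin libraries, against 7.97, 0.33, 0.85, 0.98 and 5.85 in control 1 to 5. The collagen gene Col1a1 was at 0.29 to 0.49 in the metformin libraries, against 0.23 to 1.08 in the controls.

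Eye genes were read because of the stated way of bleeding, and all 6 with values were under 1 in every metformin library and in control 2 to 5. Control 1 held 4 of them above 1, with Cryaa, a lens crystallin, at 1.78. Of a list of myosins of developing and eye muscle only Myh14, better known as a myosin outside muscle, had values, at 0.34 to 0.72 in the metformin libraries, against 1.57, 0.32, 0.36, 0.40 and 1.79 in control 1 to 5. For 3 of 12 leukocyte genes every metformin value was below control 2 to 4, as for 10.6% of all 8904 genes. None of their 9 tested genes was called by limma over all libraries (0 at an unadjusted p below 0.05), and 4 were called lower without control 1 and control 5. Over all tested genes, 5.23% had every metformin value below every control value. Of 6 erythroid markers, limma called Gata1, the main red cell transcription factor, and Tfrc, the transferrin receptor, higher (adjusted p = 0.0235 and 0.0212). At an unadjusted p below 0.05 the erythroid counts were 4 higher and 0 lower. The call of Gata1 ended without control 5 or metformin 3, 4 or 5 (adjusted p up to 0.0642), and that of Tfrc without control 5 or metformin 3 or 5 (adjusted p up to 0.0609). Without control 1 and control 5 together both were called higher, by 0.86 and 0.79 (limma adjusted p = 0.0148 and 0.0331). Platelet markers did not follow the groups, with a list mean of 0.81 to 6.56 in the metformin libraries, against 0.41 to 6.95 in the controls, and 0 of 5 called by limma (0 at an unadjusted p below 0.05).

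**Figure D4:**
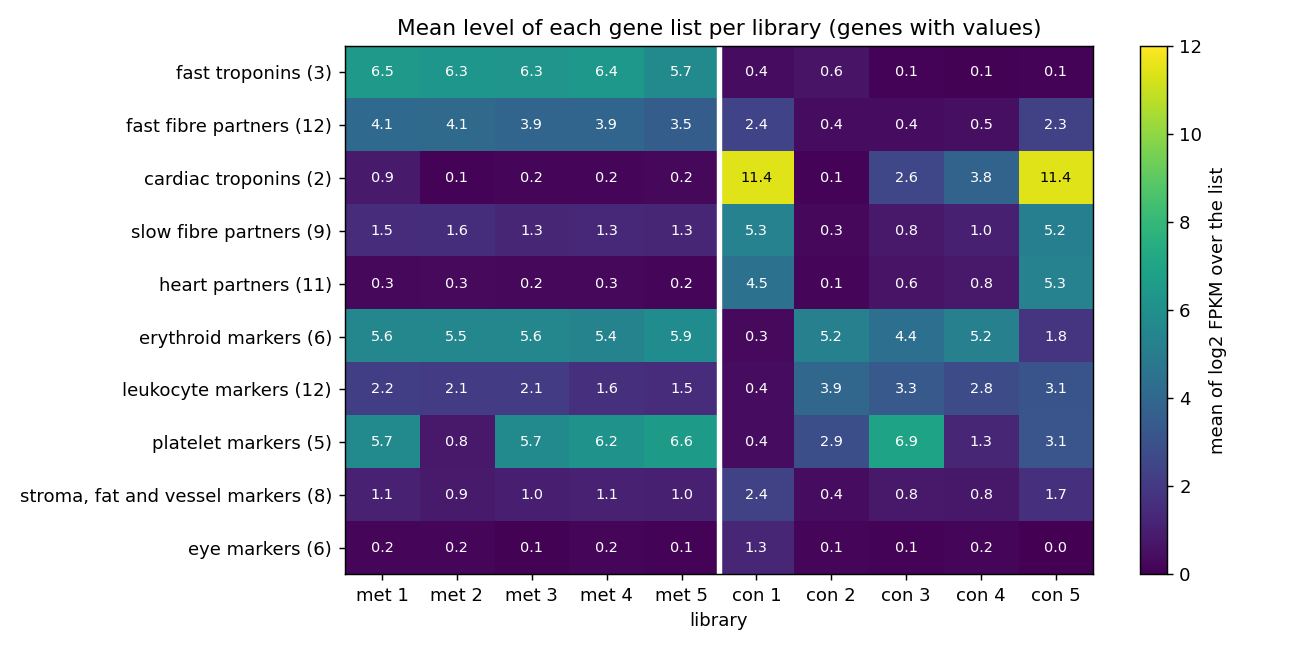
Mean log2 FPKM of each gene list (down the page, genes with values in brackets) in metformin 1 to 5 (met) and control 1 to 5 (con), with the value printed in each cell. The fast troponins range from 5.75 to 6.49 in the metformin libraries and the cardiac troponins reach 11.41 in control 1 and 5, where the erythroid markers are at 0.31 and 1.79.

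Of the regulators of muscle genes 6 had values and only 2 were tested, of which limma called 0 in either direction (0 at an unadjusted p below 0.05). Mef2c, a factor that drives muscle genes and is also used by B cells and platelets, was at 0.80 to 1.56 in the metformin libraries, against 1.89, 0.73, 1.94, 2.13 and 1.29 in control 1 to 5. Calmodulin and the smooth muscle counterparts of troponin, such as calponin and caldesmon, are the calcium switch parts of cells without troponin. Of 9 such genes 6 were tested and limma called 0 (0 higher and 1 lower at an unadjusted p below 0.05). Calm2, a calmodulin gene and a distant relative of troponin C, was at 2.93 to 4.06 in the metformin libraries, against 4.74, 3.11, 3.71, 4.01 and 3.03 in control 1 to 5.

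The tested genes whose levels ran most like the fast troponins and Tnnc1 over the 10 libraries came from the lists above. So did the first gene for Tnnt2 and for Tnni3. Heart genes that were not tested, such as Myh6 and Nppa, could not appear. Over all tested genes outside the family, Actn3 had the highest Pearson correlation with Tnnt3, Tnnc2 and Tnni2, at or above 0.999, and Atp2a1 was among the first 3 for each. For Tnnc1 the first 3 were Actc1, Myl3 and Atp2a2, at 0.998, 0.995 and 0.994. For Tnnt2 and for Tnni3 the first was Myl2, at 0.993 for both, followed by Ivns1abp and Tmem259, which are in none of the lists. Tnnt1 had looser neighbours, also outside the lists, with Tpgs1 at 0.906, Pgm2 at 0.864 and Rtn2 at 0.859. These values describe 10 libraries whose levels fall into separate clusters, and they carry no test.

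Members of the family lie in pairs of a troponin I and a troponin T gene in the mouse genome. Tnni2 and Tnnt3 are 54.4 kb apart on chromosome 7 of GRCm38 and ran together. Lsp1, a leukocyte protein gene that lies between them, was at 2.29, 2.46, 2.86, 1.59 and 1.61 in metformin 1 to 5, against 2.51, 5.09, 4.13, 4.34 and 4.52 in control 1 to 5. It thus ran opposite to both neighbours (Pearson correlation -0.80 with Tnni2 and -0.81 with Tnnt3, 10 libraries). Tnnt1 and Tnni3 are 1.92 kb apart on the same chromosome and did not run together (-0.16). Tnni1 and Tnnt2 are 25.4 kb apart on chromosome 1.

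Overlapping genes could share fragments in these libraries, since the Nextera XT kit does not mark the strand. Of the 800 exonic bases of Tnnc2, 592 also lie in exons of Ube2c, a cell division gene on the other strand. Ube2c was at 6.39 to 6.81 in the metformin libraries, against 0.24, 6.71, 5.83, 6.73 and 1.29 in control 1 to 5. In control 2 to 4 high Ube2c values stood beside Tnnc2 values of 0.63, 0.07 and 0.08, of which control 3 and control 4 were at the lowest value of the library. The values of Tnnc2 are nevertheless less certain than those of Tnnt3 and Tnni2 for this reason. Of the 2063 exonic bases of Tnni3, 86 also lie in exons of Dnaaf3 on the same strand, a gene without values here. Tnnc1 lies within Nisch, without shared exonic bases. Nisch was at 1.25 to 1.94 in the metformin libraries, against 4.31, 1.69, 2.54, 2.18 and 3.74 in control 1 to 5.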

How the data were processed

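Blood RNA of 5 metformin and 5 control libraries was analysed. RNA was extracted with TRIzol and libraries were made with the Nextera XT kit. According to the submitters' processing notes the authors used TopHat2 and Cufflinks on GRCm38. Values were deposited as log2 FPKM, and the offset before the log is not given in the sources used here. Sorted, the 10 libraries hold almost the same values (largest SD 0.0399 at any position), as after quantile normalization, which the methods do not name. Original amounts therefore cannot be recovered, and a common shift of a whole library is not visible. Without read counts the depth per library is unknown, so there are no counting intervals.

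The 3442 of 8904 genes that reached 1 on the log2 scale in 5 or more libraries were compared by limma 3.58.1 under R 4.3.3 (lmFit, eBayes with a trend), with Benjamini-Hochberg adjustment over all kept genes and a threshold of 0.05. Simulated data with known changes were used to test the fit. Lists are described by their counts of calls and their median, without set tests. The troponin genes, the lists and the alternatives were chosen with earlier results of these data known, among them that control 1 and control 5 stand apart. Named genes are the troponins, list genes that were called or define a cell type, the 3 genes most correlated with each troponin, and its annotated neighbours. A few uncalled list genes (Tpm1, Actc1, Atp2a2, Pln, Ckm, Myl3, Myh7, Myh6, Nppa, Fabp4, Mef2c and Calm2) were named after their values were seen. Positions and coding sequences are from GENCODE M21 and promoter sequences from RefSeq, read with Python 3.11.15 and Biopython 1.88. Another pseudocount, other filters, scalings and variance models, a replicate block, leaving out each library, and leaving out control 1 and control 5 were tried as alternatives.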

Additional observations from a re-analysis of the deposited data

Results flagged for a closer look

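Within-group gaps of single libraries were checked for 66 series of values, and 6 were past Dixon's limit, where chance alone passes about 1 in 20. Metformin 5 was far below the other metformin libraries for Tnnt3 (5.87, against 6.47 to 6.71 in the others) and for Tnnt3 minus Tnnt2 (5.50, against 6.11 to 6.35). Metformin 1 was far above the others for Tnni3 (1.13, against 0.09 to 0.12), and hence for the mean of the cardiac troponins (0.86, against 0.12 to 0.24). Metformin 2 was far below the others for the mean of the platelet markers (0.81, against 5.70 to 6.56). Control 1 was far above the other controls for the mean of the eye markers (1.27, against 0.04 to 0.17).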

How the results depend on the processing

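Of the values recomputed under the alternatives, 318 were scored as the same, 28 as weaker, 6 as stronger and 9 as moved. A count was the same within a set ratio, and a troponin difference if it moved by less than its pooled SD. Counts of 0 that stayed at 0 are among the 318. The side of the threshold was not scored. Tnnt1 passed it without control 1 (limma adjusted p = 0.0291) and Tnni3 without control 2 (limma adjusted p = 0.0436), both scored as the same. A reversal could be scored only for the called fast troponins, whose differences were large, and 0 were found. Of all tested genes, the number higher in metformin libraries was 60 with no filter on low values, 52 with a minimum of 2, 1741 with centring on ribosomal protein genes, which moves the median of all genes to 0.81, and 29 with a replicate block. It was 43 (without metformin 5) to 296 (without control 3) when 1 library was left out. The number lower was 13 with no filter, 64 with a minimum of 2, 19 with ribosomal centring, 1 with a replicate block, 312 without control 1 and control 5, and 8 (without metformin 5) to 237 (without control 1) when 1 library was left out. Of the thin filament genes 3 were higher with no filter or a minimum of 2, 2 with a replicate block, which ended the calls of Tpm2, Tmod1 and Tmod4 (adjusted p = 0.0938, 0.136 and 0.0509), and 3 to 4 without 1 library. Of the slow fibre genes 1 was higher with a minimum of 2, and of the heart genes 1 was higher without control 1 and control 5. The difference of Tnnt3 was 8.24 with a pseudocount of 0.1 and 6.94 with ribosomal centring, that of Tnnc2 8.30 and 6.79, that of Tnni2 7.79 and 6.56, and that of Tnnt1 1.60 and 1.54. The difference of Tnnc1, which was not called, changed sign to 0.39 without control 1 and control 5, against -2.83 with them. The cause of these shifts was not tested beyond the fewer genes or samples each holds. Libraries with the same number did not vary together (correlations -0.25 to 0.13). This cannot show whether the numbers pair mice, since control 1 and control 5 stand apart from the other controls. The precision of low values is limited by the ties at the bottom of each library, and that of group differences by control 1 and control 5.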
